A study of Bos taurus with 20 samples.

Results

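The 10 immediate early response genes examined here in bovine endometrium, the inner lining of the uterus, were FOS, FOSB, JUN, JUNB, EGR1, EGR2, NR4A1, ATF3, IER2 and DUSP1. Members were taken as the non-control array probes whose gene name was one of the 10 symbols. Of these, 9 were found in this way, through 22 of the 43653 probes, and EGR2 was not. All 9 had at least 1 probe among the 19417 genes tested, and 20 of the 22 probes passed the filter on dim signal. The tissue came from 10 cows, each biopsied in 2 periods after calving. The early period covered days 42 to 86 after parturition (median 56.5) and the late period days 343 to 436 (median 392.5). In both periods the biopsy was taken with forceps 7 days after estrus, from the uterine horn on the same side as the corpus luteum, and no treatment, strain or age is given. Each of the 20 samples was hybridised to its own Cy3-labelled array. Early and late samples of a cow share an animal number, so each cow served as her own control.

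Immediate early genes are transcribed within minutes of a stimulus without new protein synthesis, through kinase cascades that activate factors already present, such as SRF with its ELK partners and CREB. Most encode transcription factors (the FOS and JUN families that pair as AP-1, the zinc finger factor EGR1, the orphan nuclear receptor NR4A1 and the stress-induced ATF3), and DUSP1 encodes a phosphatase that switches off the kinases that induce it. Their transcripts are short-lived. In sampled tissue they are also known to respond to mechanical handling and to the time before preservation.

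Levels are given as log2 of the processed probe signal minus the 75th percentile of that array, so a level of 0 equals that percentile and a difference of 1 is a doubling. They can be compared between samples for a gene, not between genes. Between 71.8% and 80.2% of the probe spots were well above background on an array, and no spot was saturated. The arrays lay on 5 slides. Slides 1 and 2 held early samples only and slides 4 and 5 late samples only, so period and slide cannot be told apart except on slide 3, which held early samples of cows 9 and 10 and late samples of cows 1 and 2. Tissue markers were present in both periods: epithelial EPCAM averaged 4.13 early and 4.50 late, stromal VIM 6.22 and 5.90, and the uterine homeobox gene HOXA10 3.61 and 3.29. The early sample of cow 4 stood apart: of the 12 gene lists set beside the members, it had the highest mean level in 8. The bulk biopsies do not separate fewer cells of a type from less RNA per cell. The labels do not say how long a biopsy waited before preservation, and the part of handling in the results was not tested.

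Most genes were represented by probes at several positions along the transcript, and the 3′ probe was usually the brightest and stood for the gene. The 4 probes shown are the 5′-most of their genes, whose results are compared below along the transcript: FOS, JUN, NR4A1 and DUSP1. They are written 5′ to 3′ as the scanner files give them, in lower case throughout, with positions on bovine build Btau_3.1.

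FOS, from base 678 of the transcript, chr10:88961882-88961941, plus strand: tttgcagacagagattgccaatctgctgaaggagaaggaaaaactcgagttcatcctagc
JUN, from base 341, chr3:93619194-93619253, plus strand: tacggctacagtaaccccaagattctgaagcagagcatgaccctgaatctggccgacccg
NR4A1, from base 1554, chr5:30710359-30710502, minus strand: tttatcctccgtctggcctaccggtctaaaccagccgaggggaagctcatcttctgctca
DUSP1, from base 951, chr20:4576787-4577274, minus strand: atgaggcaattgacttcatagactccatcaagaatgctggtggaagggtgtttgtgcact

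The NR4A1 and DUSP1 probes are 60 bases long but span 144 and 488 bases of the genome, so each crosses a splice junction and lies in exons of the mature transcript. The FOS and JUN probes match the genome without a gap. Exon, coding and UTR borders were not used here. JUNB and ATF3 each had a single probe, at base 1719 (chr7:11005084-11005143) and base 1830 (chr16:68874240-68874299) of their transcripts.

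None of the 9 members passed the test between periods, although all 9 estimates were lower late. In limma, with the cow as a block and Benjamini-Hochberg adjustment over all genes, 256 of 19417 genes passed an adjusted p of 0.05 (1.32%), 151 of them lower late (0.778%) and 105 higher (0.541%). The 3 members NR4A1, JUN and FOSB had an unadjusted p under 0.05, against 22.6% of all genes. The median member change was -0.39, beside 0.02 over all genes, of which 47.1% were negative. Without cow 4 the median member change was -0.15. The members share cows and arrays and move together, so their common sign is not 9 separate results.

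**Figure D1:**
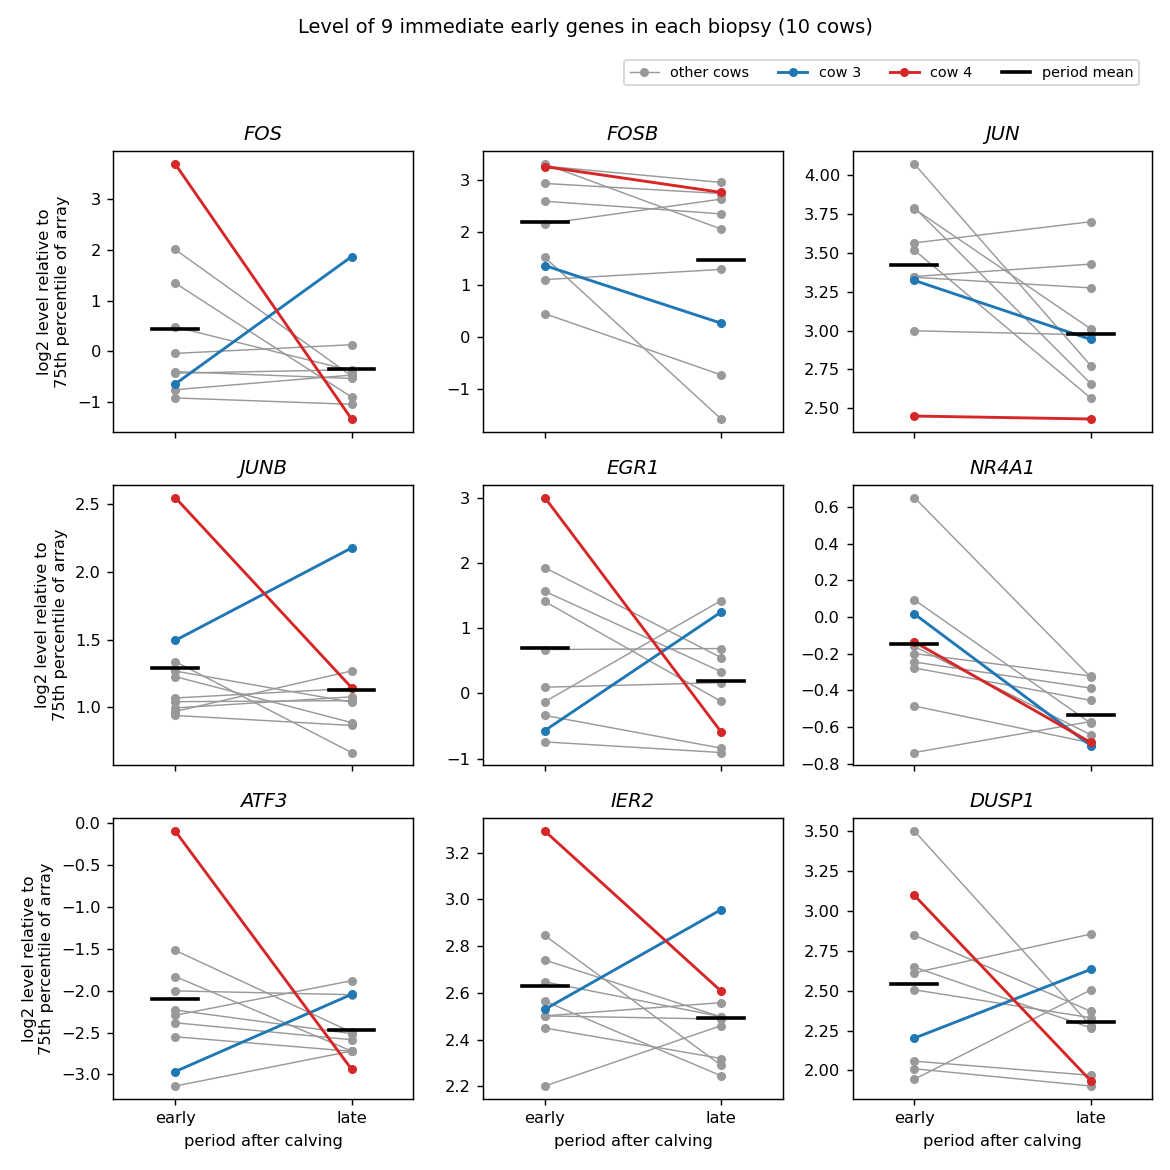
Level of each of the 9 members in every biopsy (log2 relative to the array's 75th percentile), with a line joining the early and late sample of a cow and a black bar for the period mean; vertical scales differ between genes. The early sample of cow 4 (red) is the highest for FOS, JUNB, EGR1, ATF3 and IER2 and the lowest for JUN, and the late sample of cow 3 (blue) is the highest for FOS, JUNB and IER2.

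FOS, the AP-1 partner whose induction defines the class, was among the most variable genes, with an early SD above that of 98.2% of genes. Its early levels ran from -0.92 (cow 8) through a median of -0.22 to 3.70 (cow 4), a 24.7-fold range, or 7.65-fold without cow 4. Its late levels ran from -1.34 (cow 4) through -0.48 to 1.87 (cow 3), a 9.25-fold range. The periods overlapped over most of their span: early values were high in cows 2, 4 and 10 and the late value was high only in cow 3. The mean was 0.43 ± 1.50 early and -0.36 ± 0.88 late (SD, n = 10), a change of -0.79 ± 0.58 (SE; limma adjusted p = 0.431), with 4 of 10 cows higher late. The changes of single cows ran from -5.04 (cow 4) to 2.52 (cow 3), and their SD of 2.05 exceeded that of 99.5% of the genes. Without cow 4 the estimate was -0.32. The 3 FOS probes gave changes of -0.96, -0.78 and -0.79, and the probe at base 678 correlated with the brightest at r = 0.98 early and 0.86 late. Early, 9 arrays had that probe well above background, against 5 late, and its late r was 0.28 (rho 0.54 over all cows) without the 2 farthest samples, so its change rests partly on dim signal.

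FOSB, the second FOS-family member, gave a different picture. Its early levels ran from 0.44 (cow 2) through 2.38 to 3.31 (cow 1) and its late levels from -1.58 (cow 9) through 2.21 to 2.96 (cow 5). Most cows sat high in both periods, and cows 2, 3, 8 and 9 sat low in both. The mean was 2.20 ± 1.04 early and 1.48 ± 1.62 late, a change of -0.72 ± 0.29 (SE, n = 10; limma adjusted p = 0.180), with 2 cows higher late. Cow 9 alone changed by -3.10, and without it the estimate was -0.46. The estimate depended on the probe: the probe at base 3176, which stands for the gene, gave -0.72 and the probe at base 2268 gave -0.08. The exact sign-flip test of that difference gave p = 0.00391, and 0.0586 after adjustment over the 15 probe pairs compared. The FOSB probe at base 505 was not well above background on any array. Cow 9 late was also the lowest late sample at the 5′-most probes of JUN (-3.31), IER2 (-6.90) and NR4A1 (-7.20). Early, cow 2 was the lowest for FOSB and at those probes (-1.52, -6.02 and -6.78). Late, cow 2 was not low at that NR4A1 probe (-5.73). The other 5′-most probes tested, of DUSP1 and FOS, did not all follow this. For DUSP1, cow 9 late (-1.995) lay above the late mean of -2.16. Cow 2 early (-1.89) was not the lowest early DUSP1 sample there. For FOS, cow 2 early (-4.10) lay above the early mean of -5.20. Cow 9 late was the lowest late FOS sample there (-7.29), on signal not well above background. At the probes that stand for JUN, IER2 and NR4A1, cow 9 late and cow 2 early were not the lowest. The part of array quality in the FOSB change was not tested.

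JUN, the partner that binds DNA as a homodimer or with FOS, ran from 2.45 (cow 4) through 3.43 to 4.07 (cow 10) early and from 2.43 (cow 4) through 2.96 to 3.70 (cow 5) late. Cow 4 was the lowest in both periods, and 9 late samples lay below the early median. The mean was 3.42 ± 0.46 early and 2.98 ± 0.40 late, a change of -0.44 ± 0.16 (SE, n = 10; limma adjusted p = 0.146), or 1.36-fold higher early (95% interval 1.06 to 1.74). JUN was higher late in 2 of 10 cows. Cows 2, 8, 9 and 10 fell by 0.77, 0.95, 1.13 and 1.30, and the other 6 changed by between -0.38 and 0.14. All 3 JUN probes gave lower late estimates, of -0.65 (base 341), -0.44 and -0.33. The probe at base 341 followed the one at base 1801 weakly over cows, at r = 0.18 early and 0.24 late. Without the 2 farthest samples that r was 0.55 in both periods. With the probe at base 1184, which stands for the gene, r was 0.41 early and 0.66 late.

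JUNB, a JUN relative that restrains proliferation in many cells, had 1 sample well above the others in each period. Its early levels ran from 0.94 through 1.15 to 2.55 (cow 4), and its late levels from 0.67 through 1.06 to 2.18 (cow 3). The next highest samples were at 1.49 and 1.27. The change was -0.16 ± 0.17 (SE, n = 10; limma adjusted p = 0.595), with 5 of 10 cows higher late, and it was -0.02 without cow 4, -0.25 without cow 3 and -0.10 without cow 10. ATF3, a stress-induced factor of the ATF and CREB family, ran from -3.14 through -2.26 to -0.09 (cow 4) early and from -2.94 (cow 4) through -2.55 to -1.88 (cow 9) late. Its late levels lay inside the early range. Cow 4 went from the highest early sample to the lowest late one, a change of -2.85. The mean change was -0.37 ± 0.30 (SE; limma adjusted p = 0.479), and -0.09 without that cow. With slide as a fixed block the ATF3 estimate was 1.19 ± 1.73, against -0.37 on slide 3 alone. That fit can be made only because slide 3 holds both periods, but its estimate combines the changes of all 10 cows.

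EGR1, a zinc finger factor induced through SRF, ran from -0.74 (cow 8) through 0.39 to 3.01 (cow 4) early and from -0.90 (cow 8) through 0.25 to 1.43 (cow 6) late. As for FOS, early levels were high in cows 2, 4, 9 and 10, and in the late period cow 3 was among the highest. The mean was 0.69 ± 1.24 early and 0.20 ± 0.82 late, a change of -0.50 ± 0.44 (SE, n = 10; limma adjusted p = 0.521), with 4 cows higher late. Without cow 4 it was -0.15, and without cow 3 it was -0.75. The EGR1 probe at base 331 was well above background on 7 of 20 arrays and was not tested. Of EGR2, 2 probes outside the membership rule could be named by description or accession: one was not well above background on any array, and the other changed by -0.01 ± 0.09 (limma adjusted p = 0.948).

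NR4A1, an orphan nuclear receptor induced by growth and stress signals, had the smallest p among the members and a narrow late range. Early levels ran from -0.74 (cow 8) through -0.18 to 0.65 (cow 10), and late levels from -0.70 (cow 3) through -0.57 to -0.32 (cow 2). All 10 late samples lay below the early median, and 9 of 10 cows were lower late. The mean was -0.15 ± 0.37 early and -0.54 ± 0.15 late, a change of -0.39 ± 0.11 (SE, n = 10; limma p = 0.00464, adjusted p = 0.0896), or 1.31-fold higher early (95% interval 1.11 to 1.55). Its late SD was above that of only 12.7% of genes. The adjusted p ran from 0.0532 to 0.127 in the fits of all 10 cows with another scaling, filter or treatment of the cow, reached 0.169 when single cows were left out, and was 0.137 with slide as a random block. The 3 probes gave -0.51 (base 1554), -0.81 (base 2299) and -0.39 (base 2396), each lower late. The probe at base 1554 followed the other 2 over cows at r = 0.81 and 0.77 early but 0.44 and 0.43 late. The difference between the probes at bases 2299 and 2396 had an exact sign-flip p of 0.00977, adjusted 0.0586.

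IER2, a small nuclear protein of growth-factor-stimulated cells, ran from 2.20 through 2.55 to 3.29 (cow 4) early and from 2.24 through 2.49 to 2.96 (cow 3) late, a change of -0.14 ± 0.11 (SE, n = 10; limma adjusted p = 0.471), which was -0.07 without cow 4 and -0.09 without cow 10. The probe at base 527 gave -0.41 ± 0.19 (limma p = 0.0472, adjusted over probes 0.204). The 2 IER2 probes correlated weakly over cows (r = 0.49 early and 0.01 late), and the values given are those of the 3′ probe. DUSP1, the phosphatase that inactivates MAP kinases, ran from 1.94 (cow 5) through 2.56 to 3.50 (cow 10) early and from 1.90 through 2.31 to 2.86 late. Early levels were highest in cows 10, 4 and 2. The change was -0.24 ± 0.18 (SE; limma adjusted p = 0.436), with 3 cows higher late. It was -0.14 without cow 4, -0.13 without cow 10 and 0.03 with slide as a fixed block. The splice-crossing DUSP1 probe at base 951 gave -0.51, against -0.14 for the probe at base 1624 and -0.24 for the probe at base 1816. Its differences from these had exact sign-flip p of 0.0156 and 0.0234, or 0.0586 and 0.0703 after adjustment. The difference between the probes at bases 1624 and 1816 had an exact sign-flip p of 0.0137, adjusted 0.0586.

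**Figure D2:**
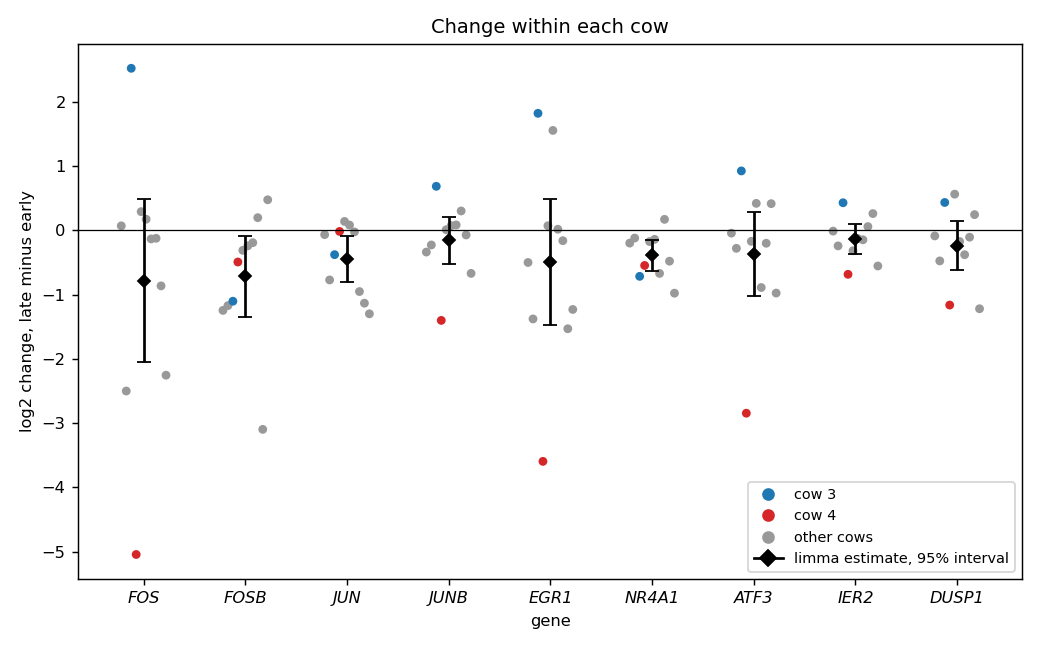
Change from early to late in each of the 10 cows (points, log2) with the limma estimate and its 95% interval (diamond and bar) for the 9 members. All 9 estimates are below 0, the intervals of FOSB, JUN and NR4A1 exclude 0 before adjustment, and cows 4 (red) and 3 (blue) give the extreme FOS and EGR1 changes, of -5.04 and 2.52 for FOS.

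On slide 3 alone, where 2 early and 2 late samples of different cows shared a slide, all 9 estimates were again lower late, with a median of -0.79, and none passed adjustment. EGR1 gave -1.63, FOS -1.34 and JUN -0.79 there, whereas IER2 gave -0.03. With slide as a fixed block over all arrays, NR4A1 gave -0.17 ± 0.50, JUN -0.84 ± 0.59 and FOS -1.15 ± 3.37 (estimate ± SE), so the slide term widened every error and moved the sizes. The 4 samples of slide 3 include the high early FOS sample of cow 10.

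Most estimates in a wider list of 46 other immediate early genes were also negative. Of the 40 tested, 31 estimates were lower late and 9 higher, with a median of -0.23, and none passed the adjusted threshold. An unadjusted limma p under 0.05 was seen for 11 of the 40. The share over all genes tested was 22.6%, to be set beside this count and those of the lists that follow. SGK1, a serum- and glucocorticoid-induced kinase, changed by -0.37 ± 0.10 (SE; limma adjusted p = 0.0875) and DUSP4, a nuclear MAP kinase phosphatase, by -0.98 ± 0.29 (adjusted p = 0.0987). The most negative estimate was that of CCN1, a matricellular protein, at -1.06, and the most positive that of EGR4, at 0.50. Of 28 tested upstream kinases and transcription factors, 18 were lower and 10 higher, with a median of -0.10; none passed the test and 3 had an unadjusted p under 0.05. MAP2K3, which activates p38, changed by -0.22 ± 0.07 (limma adjusted p = 0.108) and was lower in all 10 cows. ELK1, the SRF partner, changed by -0.48 ± 0.16 (adjusted p = 0.128).

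**Figure D3:**
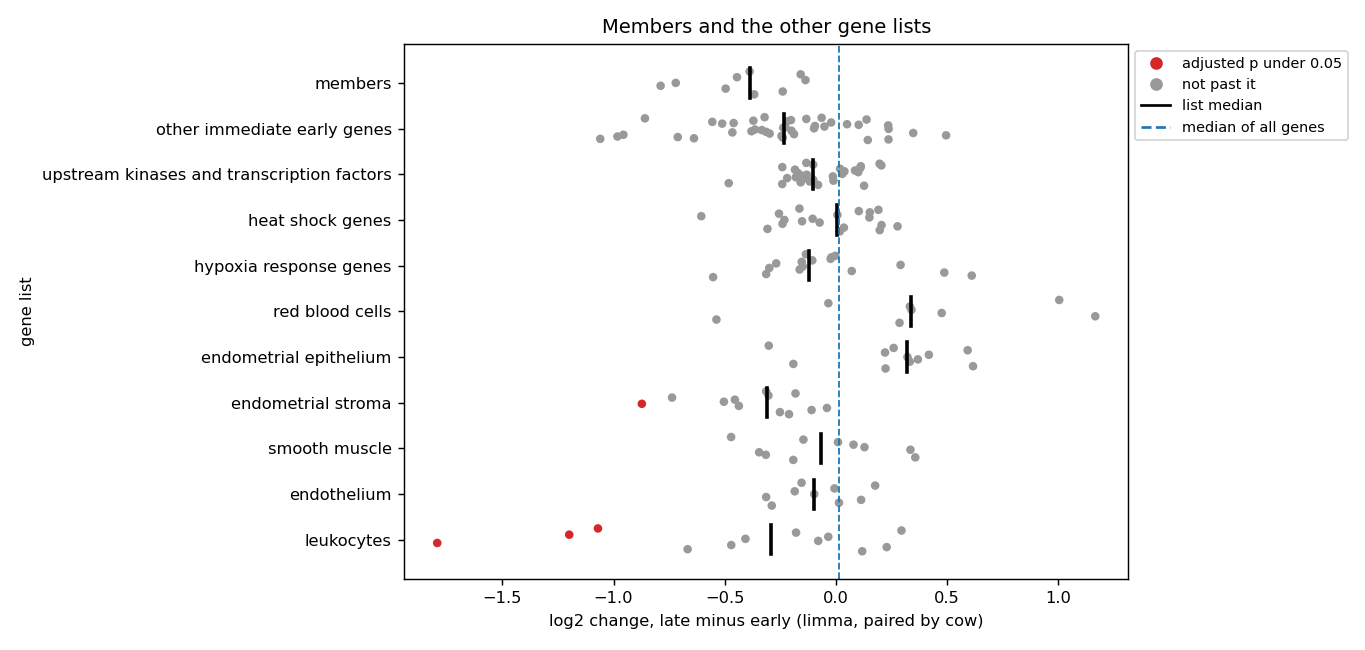
Change from early to late (limma log2 estimate, paired by cow) of each tested gene in 11 lists; red points passed an adjusted p of 0.05, black bars are list medians and the dashed line is the median of all genes. The members lie wholly below 0 with a median of -0.39, the other immediate early genes have a median of -0.23, and the red points are HAND2 among stromal genes and CD68, NKG7 and TYROBP among leukocyte genes.

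Lists of stress and cell type markers were measured beside the members. No heat shock, hypoxia, red blood cell or epithelial gene passed the test. An unadjusted limma p under 0.05 was seen for 4 of 19, 2 of 16, 4 of 8 and 3 of 11 of them, beside 22.6% of all genes. Heat shock genes had 9 of 19 estimates lower and a median of 0.01, with HSPA6 at -0.60 (limma adjusted p = 0.0821) and DNAJB1 at 0.28 (adjusted p = 0.117). Hypoxia response genes had 12 of 16 estimates lower and a median of -0.12, with BNIP3 at -0.31 (adjusted p = 0.0878) and CA9 at 0.49 (adjusted p = 0.108). Of 12 leukocyte estimates 9 were lower late and 3 higher, with a median of -0.29. An unadjusted limma p under 0.05 was seen for 7 of them. The 3 called lower late by limma were CD68 of macrophages (-1.79, adjusted p = 0.00552), NKG7 of cytotoxic lymphocytes (-1.20, adjusted p = 0.0261) and TYROBP, a myeloid and NK cell adaptor (-1.07, adjusted p = 0.0306). All 12 stromal estimates were lower late and HAND2, a stromal progesterone-response factor, was called (-0.87, limma adjusted p = 0.0455), with a list median of -0.31. Of 11 epithelial estimates 9 were higher late, median 0.32, with KRT18 at 0.42 and CLDN3 at 0.62. Of 8 red blood cell genes 6 were higher, median 0.34, with EPB42 at 1.17 (limma adjusted p = 0.0517). Smooth muscle (CALD1 -0.31, DES 0.34), endothelial (ENG -0.31, CDH5 -0.29), uterine identity (HOXD10 -0.46, HOXA10 -0.32) and cell cycle lists (CCNA2 0.33, CDK1 0.24) had no gene called, with 1, 1, 2 and 0 at an unadjusted p under 0.05. The part of these shifts in the members' values was not tested.

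The levels of 6 members varied together from cow to cow in the early biopsies and in the changes. This group of FOS, JUNB, EGR1, ATF3, IER2 and DUSP1 was recognised after the values were seen. Its 15 pairs had Pearson r between 0.44 and 0.94 early (median 0.77), between -0.05 and 0.84 late (median 0.50) and between 0.61 and 0.92 for the changes (median 0.81). Without cow 4 the medians were 0.49, 0.42 and 0.69, and the ranges were -0.02 to 0.90, -0.25 to 0.86 and 0.37 to 0.84. Early, JUNB then had r of 0.02 with EGR1 and -0.02 with ATF3, so its place in the group rested largely on cow 4. Over all 36 member pairs the median r was 0.35 early, 0.13 late and 0.25 for the changes, and 15, 7 and 15 pairs reached 0.5. All gene pairs on the array gave medians of 0.003, 0 and 0.006, and 13.9%, 13.2% and 16.0% of them reached 0.5. With deviations from the slide means in place of levels, the median over member pairs was 0.47 early and 0.15 late; a slide holds too few samples of a period for its own value. Changes share each cow's early sample with the early levels, so the sets are not separate evidence.

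FOS and EGR1 were the closest pair. Their early levels correlated at r = 0.94 (rho 0.90; permutation p adjusted over 108 relations = 0.0081 for r and 0.032 for rho), and r was 0.86 without cows 2 and 4, the 2 samples farthest from the FOS median. Late, r was 0.66 (adjusted permutation p = 0.0906) and 0.58 without cows 3 and 4. EGR1 and DUSP1 correlated early at r = 0.81 (rho 0.82; adjusted permutation p = 0.0434 for r and 0.125 for rho), and at 0.82 without cows 2 and 4. FOS and DUSP1 had an early rho of 0.90 (adjusted permutation p = 0.032) and r of 0.78 (adjusted permutation p = 0.0524), and r was 0.93 without those cows. By contrast, JUNB with FOS (early r = 0.78) dropped to 0.18 without cows 2 and 4, and JUNB with ATF3 (0.76) to -0.02 without cow 4, so these relations rested on that sample. No late pair passed adjustment; the highest late r, JUNB with IER2 at 0.84, dropped to 0.17 without cows 3 and 10.

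For the changes, 9 of 36 pairs passed an adjusted permutation p of 0.05 by r and 1 by rho. That 1 was FOS with EGR1 (r = 0.92, rho 0.90, adjusted permutation p 0.0081 and 0.032), with r = 0.72 without cows 3 and 4. FOS with JUNB had r = 0.92, rho 0.70 and 0.65 without those cows. ATF3 with IER2 had r = 0.84, rho 0.81 and 0.67 without them. JUNB with ATF3 dropped from 0.87 to 0.38, and FOS with ATF3 from 0.85 to 0.39.

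**Figure D4:**
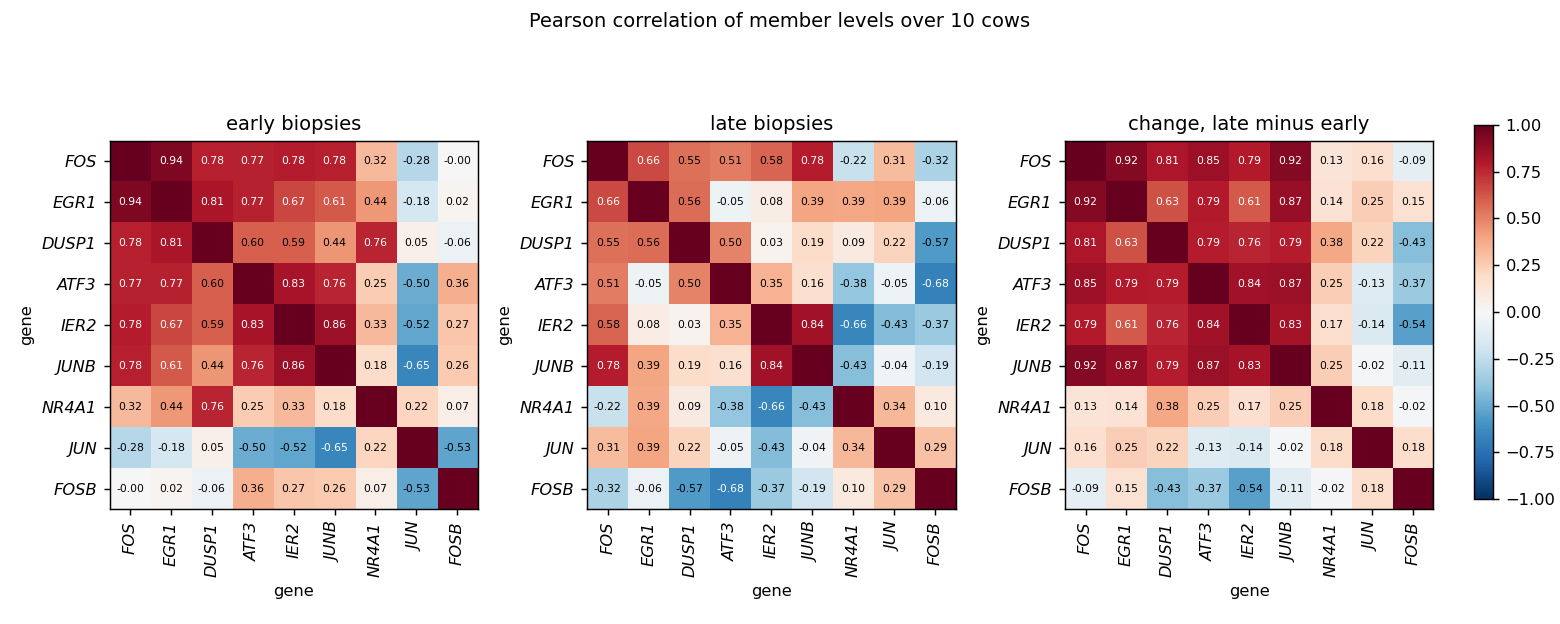
Pearson correlation over 10 cows between the levels of each pair of members in the early biopsies, the late biopsies and the changes, on a colour scale from -1 to 1. A block of 6 genes from FOS to JUNB is positive throughout early (0.44 to 0.94) and in the changes (0.61 to 0.92), is weaker late, and excludes NR4A1, JUN and FOSB.

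NR4A1, JUN and FOSB, the members with the smallest p between periods, are described apart from this group. The median r of NR4A1 with the other 8 members was 0.29 early, -0.07 late and 0.18 for the changes. Without cow 4 it was 0.47 early, beside 0.49 within the group of 6 without that cow, -0.24 late and 0.15 for the changes. Early, r of NR4A1 with FOS went from 0.32 to 0.76 without cows 2 and 4. NR4A1 with DUSP1 had an early r of 0.76 (adjusted permutation p = 0.0524 for r and 0.143 for rho), which was 0.39 without cows 8 and 10. NR4A1 with IER2 had a late r of -0.66 (adjusted permutation p = 0.111). JUN had negative early r with 6 of the 8 other members, down to -0.65 with JUNB. Except with FOSB, that sign rested on cow 4, which had the lowest JUN. Without that cow the median of those 8 r went from -0.39 to 0.33, and JUN with FOS from -0.28 to 0.69. JUN with FOSB stayed negative, at -0.53 with cow 4 and -0.42 without it. FOSB had a median r of 0.04 early and -0.25 late with the other 8 members.

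Cows kept much of their order in FOSB from the early to the late biopsy, but neither r nor rho passed 0.05 after adjustment. The early and late levels of a cow correlated at r = 0.79 for FOSB (rho 0.72, n = 10), and at 0.80 without cows 2 and 8. The permutation p was 0.00562 for r and 0.0239 for rho, or 0.0506 and 0.215 after adjustment over the 9 members. For the other 8 members the r between periods ran from -0.45 (FOS) to 0.33 (NR4A1), with adjusted permutation p of 0.783 or more. Its probes at bases 2268 and 3176 correlated at 0.90 early and 0.97 late. FOSB also had many followers on the array: 211 of 19200 non-member genes had r of 0.8 or more with it in both periods, against 18 for JUN, 9 for JUNB, 5 for FOS and 2 or fewer for each other member. WIPI2 (r = 0.96 early and 0.97 late), SLC25A45 (0.94 and 0.95) and SPTBN4 (0.94 and 0.97) were the closest, chosen after their values were seen. The mean level of the upstream kinase and factor list followed FOSB at r = 0.66 early and 0.88 late (rho 0.42 and 0.88). Without the 2 farthest samples r was 0.20 early (cows 2 and 4) and 0.64 late (cows 2 and 9), so the early relation rested on those cows. Cow 2, low in FOSB in both periods, had the smallest share of spots well above background in both (74.4% and 71.8%). Cow 9, the lowest in FOSB late, had the next smallest share late (74.2%). Cow 3, low in FOSB in both periods, had the largest share early (80.0%). The part of array quality in the FOSB values was not tested.

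**Figure D5:**
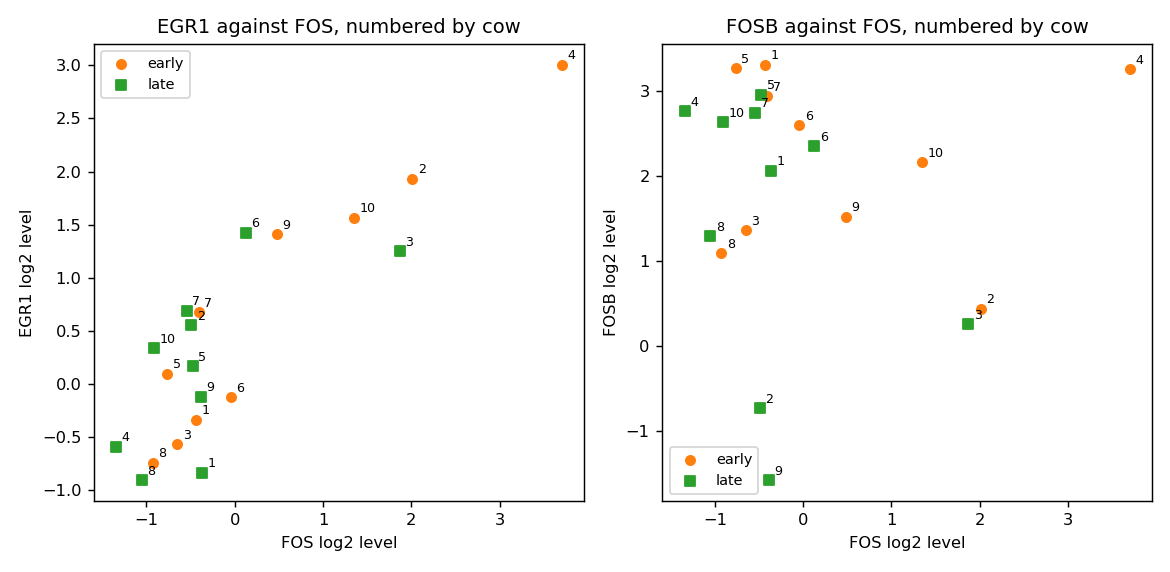
Levels (log2) of EGR1 (left) and FOSB (right) against FOS, numbered by cow, for early (circles) and late (squares) biopsies. EGR1 is higher in samples with more FOS in both periods (r = 0.94 early, 0.66 late), whereas FOSB and FOS do not show this (r = -0.001 early, -0.32 late).

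The genes most like the mean of the 9 members, by the lower of the early and late r over 10 cows each, were led by PIM1 (0.80 early, 0.81 late), a cytokine-induced kinase, and PTPMT1, a mitochondrial phosphatase (0.78 and 0.77). They were followed by the unnamed transcript TC328281, ADSL of purine synthesis, the nucleolar methyltransferase NOP2, the RNA polymerase I subunit POLR1F, the transcript ENSBTAT00000045254, CD1B, the splicing factor SFPQ and the unnamed EV733577, with lower r between 0.74 and 0.76. Only PIM1 reached 0.8 in both periods. PIM1 changed by -0.74 (limma adjusted p = 0.190) and CD1B by -1.98 (adjusted p = 0.0963). Among single members, FOS was followed most closely by GPRC5A (0.90 and 0.87), and DUSP1 by CREM, a cAMP-responsive factor (0.84 and 0.80), and by CCN1 (0.78 and 0.89).

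The members' mean, each member centred on its period mean, ran opposite to the mean hypoxia response level in all sets: r was -0.81 early, -0.64 late and -0.78 for the changes (rho -0.78, -0.64 and -0.89), and -0.61, -0.76 and -0.71 without cow 4. Without the 2 samples farthest from the median hypoxia level, r was -0.36 early (cows 4 and 10), -0.89 late and -0.76 for the changes, so the size of the early relation rested on those cows. The early sample of cow 4 had the highest members' mean (1.13) and the lowest hypoxia level (-0.70). Other immediate early genes followed the members at r = 0.90 early but -0.17 late, and 0.74 and -0.31 without cow 4. Without the 2 farthest samples these were 0.36 early (cows 4 and 10) and 0.56 late (cows 6 and 9), so the contrast between periods rested on those samples. Heat shock genes followed at 0.73 early only through cow 4 (0.16 without it). Red blood cell genes gave -0.65, -0.41 and -0.49, and smooth muscle genes 0.41, 0.72 and 0.66 (0.15, 0.70 and 0.55 without cow 4). For the changes, leukocyte genes gave 0.75 and stromal genes 0.61. These were 0.46 and 0.39 without cow 4, and 0.12 and 0.21 without the 2 farthest samples. The share of spots above background gave -0.17, 0.33 and -0.07. These are descriptions of 10 samples each, without tests.

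The day of the biopsy within a period showed no relation to the members that passed a test. Of 19417 genes limma called 0 in each period, with 1098 early and 267 late at an unadjusted p under 0.05. The smallest member p was 0.373 early (DUSP1, -0.11 ± 0.12 per 10 days) and 0.339 late (EGR1, -0.09 ± 0.09 per 10 days).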

How the data were processed

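Total RNA of 20 endometrial samples was labelled with Cy3 and hybridised to Agilent arrays, per the labels' protocols. The deposited scanner files give spot intensity from Agilent Feature Extraction 10.5.1.1, per the submitters' processing notes, with background handled by that software. The authors' deposited log2 table correlated with the values used here at r of 0.99997 or more, after centring per probe. Processed signals were taken as log2 minus each array's 75th percentile; spots flagged as outliers and control spots were left out. Probes well above background on at least 8 of 20 arrays were kept, and the probe with the highest mean stood for its gene. Genes were named through RefSeq accessions or symbols where these matched. Late against early was fitted with limma 3.58.1 in R 4.3.3 with the cow as a block, since labels give both samples 1 animal number, with Benjamini-Hochberg adjustment. The fit was tested on simulated data. Correlations over cows used 100000 permutations (scipy 1.17.1); those of the members' mean have no p, as the members were chosen as a set. Probe differences used the exact sign-flip test. The number of arrays limits precision.

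Members and lists were chosen with earlier results of these data known. The text names every member, per list up to 4 genes past the threshold or else the 2 of smallest p, and the 10 genes most like the members' mean; others are named where said, and 1 gene that this rule picks is not reported here. Promoter motifs were planned and not analysed here. Alternatives covered scaling, filter, probe choice, cow and slide terms, and leaving out each cow.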

Additional observations from a re-analysis of the deposited data

Results flagged for a closer look

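In 7 of 27 groups of 10 values (9 members, early, late and change) the gap between an extreme sample and its neighbour exceeded Dixon's critical share of the group's range; chance flags about 1 group in 20, and members share samples. The late sample of cow 3 stood apart for FOS (1.87, next 0.13), JUNB (2.18, next 1.27) and IER2 (2.96, next 2.61). The early sample of cow 4 stood apart for JUNB (2.55, next 1.49) and ATF3 (-0.091, next -1.52). Among changes, cow 4 stood apart for ATF3 (-2.85, next -0.98) and cow 9 for FOSB (-3.10, next -1.25). The part of tissue handling or array quality in these samples was not tested.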

How the results depend on the processing

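No member was called under any of 24 alternatives, and of 227 values of single members under them 225 kept the negative sign. The 2 that did not were both with slide as a fixed block, ATF3 at 1.19 and DUSP1 at 0.031. That fit can be made only because slide 3 holds both periods, and its estimates combine the changes of all cows. It called 0 of all genes (366 at an unadjusted limma p under 0.05). The median member change ran from -0.45 to -0.15 when each cow was left out, with -0.15 without cow 4, and was -0.39 with no replicate block for the cow, where 119 genes were called in place of 256. Over all genes the count was 720 with the cow as a random effect, 114 without a filter, 35 with slide as a random block, 0 within slide 3 (1721 at an unadjusted p under 0.05) and 35 to 160 without each cow. Scaling moved the split of calls: 126 of 270 were lower late with normexp, 172 of 355 with quantile and 155 of 317 with the median of detected probes, against 151 of 256. The median r over member pairs ran from 0.30 to 0.43 early, -0.01 to 0.18 late and 0.21 to 0.46 for changes when each cow was left out, and was 0.47 early with deviations from slide means. That setting and slide 3 alone were chosen after seeing the data. The causes were not tested. The 10 pairs of arrays limit the precision.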
